A study of Mus musculus with 9 samples.

Results

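The cytochrome P450 genes were followed in sorted mouse embryoid body cells on 9 arrays, with 3 for day 4, 3 for day 7 and 3 for day 21 of differentiation. Members were the genes whose symbol begins with Cyp, a family number, a letter and a gene number, measured by a probe set that the platform annotation assigns to that gene alone. This gave 95 genes of 22180 measured in all, on 99 probe sets, and where a gene had 2 probe sets the one brighter on average stood for it. In all 3 groups the cells were mouse embryonic stem cells with a transgene in which the Afp promoter drives green fluorescent protein. They were grown as embryoid bodies in IMDM with fetal bovine serum, penicillin and streptomycin, transferrin, ascorbic acid and PFHM and were left to attach and spread on gelatin. Cells expressing the Afp reporter were then sorted by flow cytometry, so the reporter marks cells that use the Afp promoter and does not by itself define 1 cell type. The groups differ in the day of collection, day 4, 7 or 21. The labels name no unsorted or reporter-negative control among these samples. Nothing in them says whether same-day samples were cultured separately, so the p-values reflect the scatter among these arrays alone, and that scatter could be technical.

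Cytochromes P450 are haem-containing monooxygenases that insert an oxygen atom into lipids, steroids, vitamins and foreign compounds. Most sit in the endoplasmic reticulum and draw electrons from the reductase Por. A mitochondrial group, which includes some of the steroid-forming enzymes, such as Cyp11a1, uses the ferredoxin Fdx1 and its reductase. The liver holds the widest range of drug-oxidising and bile acid-forming members, and many of these are switched on late in hepatocyte maturation. Others work in steroidogenic glands, in gut and airway epithelium, or in the clearance of retinoic acid from embryonic tissue.

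Signals are log2 values, so a difference of 1 is a 2-fold change in array signal. The reference for background was the 95th percentile of 1105 olfactory receptor genes, which are silent in most cells, and a member whose mean on a day lay above it is called above background. That level lay between 5.91 and 6.19 on the 9 arrays and averaged 6.06, 6.06 and 6.03 on days 4, 7 and 21. The medians of all probe sets lay between 5.88 and 5.98. Precision is limited by the number of arrays, since array signal has no read depth. The sorting marker itself was below background at day 4, where Afp read 5.93, 5.62 and 5.62, and was far above it at day 7 (10.68, 10.59 and 10.54) and day 21 (13.12, 13.14 and 12.95). In sorted bulk RNA, fewer cells of a type and less RNA per cell cannot be told apart. Changes were tested with limma in 1 fit over all genes and 9 arrays, with calls made where the adjusted p was under 0.05.

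Few P450 genes were above background, and more members were called between days 7 and 21 than between days 4 and 7. The same held for all genes (23.0% against 13.4%), and the later interval is the longer. Of the 95 members, 24 were above background on at least 1 day, against 59.5% of all genes, and 71 were not above it on any day. Members next to the level were Cyp26b1 (6.07) and Cyp2d40 (6.01) at day 4, Cyp2j6 (6.09) and Cyp2d26 (6.03) at day 7, and Cyp2d40 (6.10) and Cyp27a1 (5.99) at day 21. 12 were above it on all 3 days, and 5, namely Cyp11a1, Cyp1b1, Cyp2d22, Cyp2d26 and Cyp2w1, at day 21 alone. On day 4, 15 members were above background (53.7% of all genes), on day 7 it was 16 (54.1%) and on day 21 it was 22 (56.3%). Many lay close to the level: with the 99th percentile of the olfactory receptor genes instead, 5, 7 and 12 members were above it. Between days 4 and 7, 2 members rose (6.98% of all genes did) and 3 fell (6.47%). Between days 7 and 21, 13 rose, or 13.7% of members (12.4% of all genes), and 5 fell (10.7%), which together is 18.9% of members against 23.0% of all genes. From day 4 to day 21, 15 rose, or 15.8% of members (15.0% of all genes), and 3 fell, or 3.16% (14.1%), together 18.9% against 29.1%. The shares of members that rose thus lay close to those of all genes in the last 2 comparisons, and the median log2 change of the members was 0.01, -0.01 and 0.04 in the order given, against -0.01, -0.03 and -0.03 for all genes. With array medians subtracted instead, 13 members rose and 9 fell from day 4 to day 21, and the calls over all genes moved from 3328 up and 3120 down to 2686 up and 4619 down, since that scaling shifted the median of all genes by -0.11. Between days 4 and 7, 1 member was higher without any 1 of the day 4 arrays, day 7 array 1 or 3, or day 21 array 2. Leaving out day 4 array 1 or day 21 array 2 left 1 member lower at day 21 than at day 4. Without day 7 array 1, day 21 array 1 or day 21 array 3, 3 members were lower at day 21 than at day 7.

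**Figure D1:**
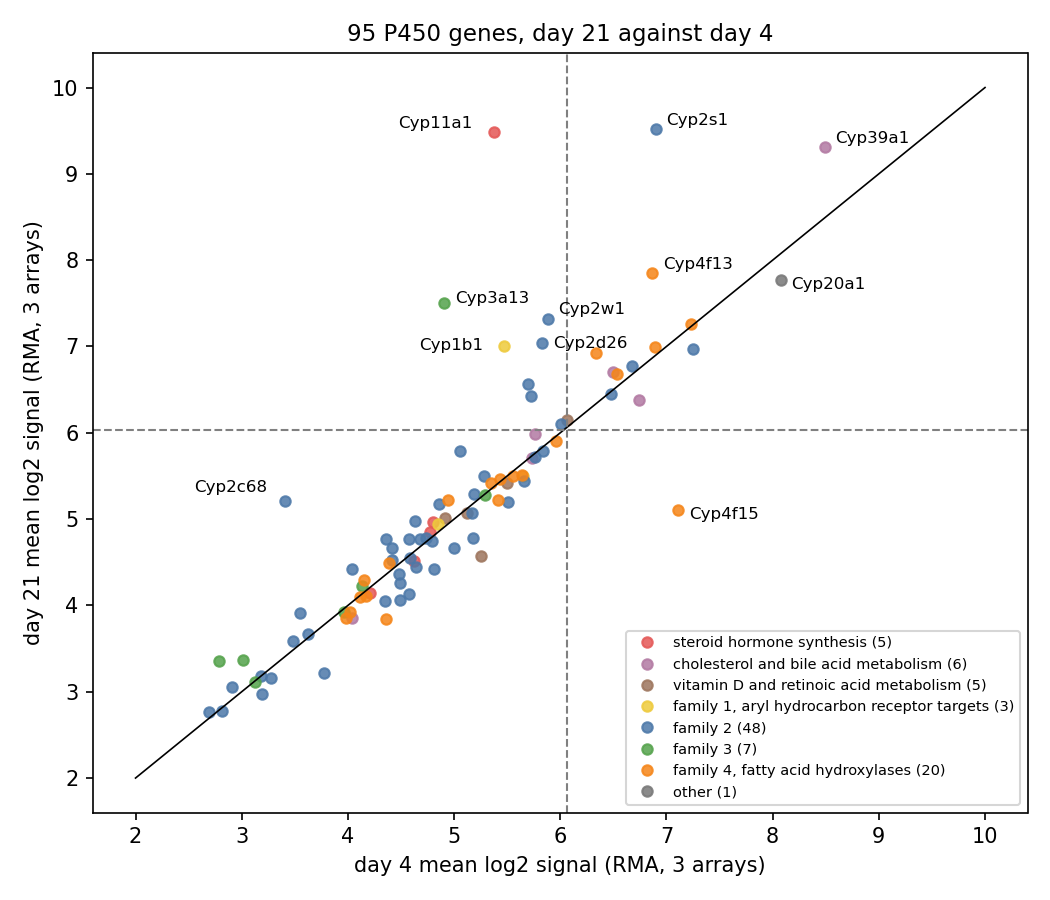
Mean log2 signal of each of the 95 P450 genes at day 4 (horizontal axis) and day 21 (vertical axis), 3 arrays per day, coloured by role or family. The solid line marks equal signal and dashed lines mark the background level of each day (6.06 and 6.03); Cyp11a1, Cyp2s1, Cyp3a13, Cyp1b1 and Cyp2w1 lie far above the line, Cyp4f15 lies far below it, and most members lie in the lower left field, below background on both days.

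The members that were above background and rose most from day 4 to day 21 were Cyp11a1, Cyp2s1, Cyp3a13, Cyp1b1 and Cyp2w1. Their promoters, the 250 bases before each RefSeq transcript start on build GRCm38.p6, are shown as the regulatory sequence next to the start site, with the 2 listed starts of Cyp11a1. Both strands were searched for GCGTG, the core of the site bound by the aryl hydrocarbon receptor, for AGGTCA, the core of many nuclear receptor sites, for CAAAGTC, from the HNF4 consensus, and for GTTAAT, from the HNF1 consensus. Capitals mark matches, which did not overlap one another in these sequences.
Cyp11a1 first promoter, chr9:57997774-57998023, plus strand: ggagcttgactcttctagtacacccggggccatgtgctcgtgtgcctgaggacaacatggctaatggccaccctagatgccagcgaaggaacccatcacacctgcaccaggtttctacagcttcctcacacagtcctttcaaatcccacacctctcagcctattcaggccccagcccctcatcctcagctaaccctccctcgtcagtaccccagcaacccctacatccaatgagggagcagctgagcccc
Cyp11a1 second promoter, chr9:58014702-58014951, plus strand: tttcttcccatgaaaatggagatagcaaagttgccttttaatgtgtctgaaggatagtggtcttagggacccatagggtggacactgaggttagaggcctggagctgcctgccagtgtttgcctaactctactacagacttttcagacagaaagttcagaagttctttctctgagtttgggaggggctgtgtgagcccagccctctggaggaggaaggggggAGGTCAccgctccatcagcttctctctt
Cyp2s1 promoter, chr7:25816526-25816775, minus strand: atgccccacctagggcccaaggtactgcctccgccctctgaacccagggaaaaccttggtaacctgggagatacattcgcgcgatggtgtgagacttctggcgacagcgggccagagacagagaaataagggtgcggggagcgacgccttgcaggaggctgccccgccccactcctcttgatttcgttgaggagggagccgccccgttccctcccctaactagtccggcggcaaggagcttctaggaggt
Cyp3a13 promoter, chr5:137921620-137921869, minus strand: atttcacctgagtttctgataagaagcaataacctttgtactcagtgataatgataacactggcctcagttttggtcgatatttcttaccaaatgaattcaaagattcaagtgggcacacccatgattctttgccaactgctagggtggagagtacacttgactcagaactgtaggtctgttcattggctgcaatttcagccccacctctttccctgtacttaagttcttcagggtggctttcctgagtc
Cyp1b1 promoter, chr17:79715062-79715311, minus strand: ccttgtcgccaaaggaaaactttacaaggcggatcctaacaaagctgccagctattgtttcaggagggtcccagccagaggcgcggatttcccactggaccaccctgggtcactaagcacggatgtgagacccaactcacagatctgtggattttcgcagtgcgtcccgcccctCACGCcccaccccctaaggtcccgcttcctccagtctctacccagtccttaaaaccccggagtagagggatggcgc
Cyp2w1 promoter, chr5:139352366-139352615, plus strand: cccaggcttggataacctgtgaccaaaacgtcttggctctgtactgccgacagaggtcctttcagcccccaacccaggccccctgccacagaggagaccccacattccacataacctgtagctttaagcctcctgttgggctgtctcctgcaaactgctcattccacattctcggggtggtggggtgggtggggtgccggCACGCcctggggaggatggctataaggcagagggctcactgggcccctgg
The second Cyp11a1 promoter held AGGTCA, beginning 28 bases before the start. Cyp1b1 and Cyp2w1 each held GCGTG on the reverse strand, beginning 76 and 50 bases before the start. None of the 4 motifs was found in the windows shown for the first Cyp11a1 start, Cyp2s1 or Cyp3a13. The array annotation used here does not say which Cyp11a1 start the probe set reads.

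Of the 95 members, 69 had a promoter in the RefSeq table. CAAAGTC was present in 18 of these 69 genes, against 4.33% of the 27025 genes in the table, and GTTAAT in 9 against 7.49%. AGGTCA was found in 17 of the 69 against 15.8%, and GCGTG in 14 against 30.9%. Among the 18 members with a promoter that were above background on at least 1 day, CAAAGTC was found in 1 (Cyp46a1), AGGTCA in 1 (Cyp11a1), GTTAAT in 1 (Cyp2d26) and GCGTG in 7. The CAAAGTC matches lay mostly in genes below background in these cells. Most of the members with a promoter were below background too, since 18 of the 69 were above it. The genes with a CAAAGTC match were chiefly of the Cyp2a, Cyp2b, Cyp2c and Cyp3a groups, whose promoters share ancestry and are not independent.

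Of the 5 measured steroid hormone genes, 1 rose and the other 4 stayed below background on all days. Cyp11a1 (probe set 17517831), the mitochondrial enzyme that cuts the side chain of cholesterol to make pregnenolone, had the largest change of the family. It read 5.39, 5.35 and 5.39 at day 4, 5.42, 5.22 and 5.12 at day 7, and 9.47, 9.51 and 9.47 at day 21. The day 21 arrays were nearly identical and lay far above all 6 earlier ones, which were below background. From day 7 to day 21 the log2 change was 4.23 ± 0.10 (SE), or 18.7-fold against a floor, with a limma adjusted p of 2.83e-09. Between days 4 and 7 it was -0.12 ± 0.10, and the 2 intervals differed (limma adjusted p = 1.37e-07).

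A weaker Cyp11a1 probe set, 17517828, did not follow: it read 5.10 on all day 4 arrays and 5.10, 4.58 and 5.72 at day 21, below background on each day's mean. Averaging both probe sets lowered the change from day 7 to day 21 to 2.16, still called (limma adjusted p of at most 1.52e-06 over all alternatives tried). The next enzymes of the pathway were below background. Cyp17a1, which forms androgen precursors, had means of 4.63, 4.67 and 4.52 on days 4, 7 and 21 with no called change, and Cyp11b1, Cyp11b2 and Cyp21a1, of adrenal steroid synthesis, were also below background on every day.

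Markers of steroidogenic glands were read beside Cyp11a1. Of 8 measured, 4, 4 and 5 were above background on days 4, 7 and 21. The marker added at day 21 was Amh, with means of 6.05, 5.99 and 6.04 and no called change. The background level on those days was 6.06, 6.06 and 6.03. At day 21 against day 7, 2 of the 8 were higher and 1 lower. The summed linear signal of the list was 737 to 745 at day 4, 1023 to 1365 at day 7 and 927 to 960 at day 21. Inha, a gonadal hormone subunit gene, was above background on every day and rose at each step, with means of 6.86, 7.70 and 8.30 (limma adjusted p = 0.0016 and 0.00749). Fdx1, the electron donor of Cyp11a1, rose from 6.55 at day 7 to 7.15 at day 21 (limma adjusted p = 0.00462), and Cited1 fell from 9.35 to 7.95 (limma adjusted p = 2.46e-04), the 1 lower call of the list. The defining regulator Nr5a1 (5.76, 5.70 and 5.75 at day 21), the dehydrogenase Hsd3b1 and the ACTH receptor gene Mc2r were below background on all 3 days. Hsd3b1 was called higher at day 21 than at day 4 within that range (log2 change 0.65, limma adjusted p = 0.0477), a call lost without day 4 array 1 or 3, day 7 array 2 or any 1 of the day 21 arrays (limma adjusted p = 0.0536 to 0.165). Star, which delivers cholesterol to Cyp11a1, read 6.21, 6.23 and 6.10 at day 21, just above background. The part of such cells in the Cyp11a1 change was not tested.

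**Figure D2:**
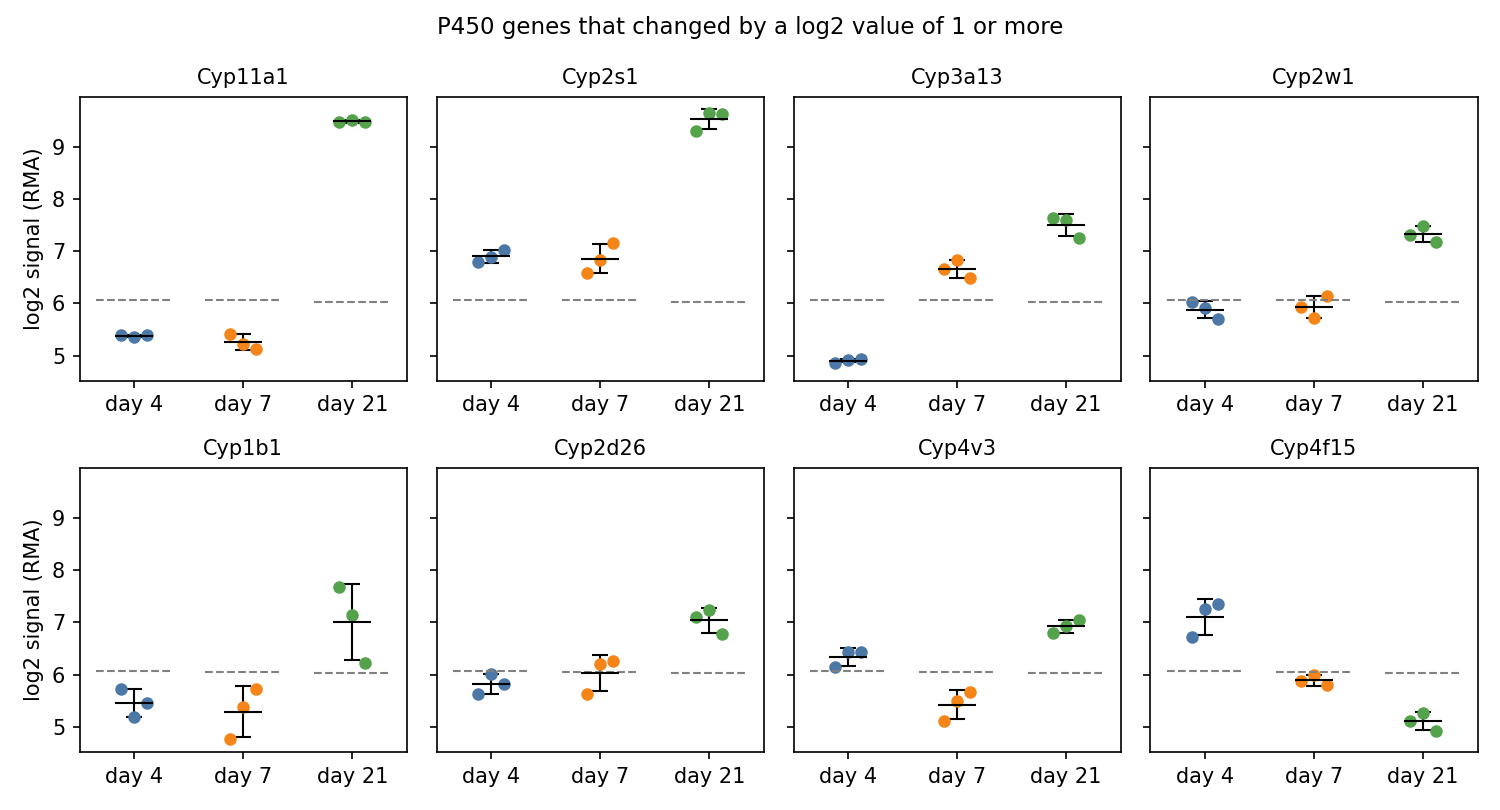
Log2 signal of the 8 members that were above background on at least 1 day and had a called change of 1 or more on the log2 scale. Points are single arrays, bars the mean ± SD of 3 arrays per day, dashed lines the background level of that day; Cyp11a1 and Cyp2s1 step up at day 21, Cyp3a13 is already up at day 7, Cyp4v3 is low at day 7, and Cyp4f15 steps down from 7.11 to 5.89 to 5.10.

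Family 2, the largest branch and the one with many drug-oxidising enzymes, had 48 members here, counted without the vitamin D enzyme Cyp2r1, and 9 of them were above background on at least 1 day. At day 21 against day 7, 6 of the 48 rose (12.5%, against 12.4% of all genes) and 2 fell (4.17%, against 10.7%). Against day 4 the 9 called members all rose (18.8%, against 15.0% of all genes). Cyp2s1 (probe set 17488057), an enzyme of epithelia outside the liver, read 6.79, 6.88 and 7.03 at day 4, 6.59, 6.83 and 7.15 at day 7, and 9.30, 9.64 and 9.62 at day 21. The arrays of days 4 and 7 overlapped, and all day 21 arrays stood above them. Its log2 change from day 7 to day 21 was 2.66 ± 0.15 (SE), or 6.32-fold (limma adjusted p = 9.04e-07), and this interval differed from the first (limma adjusted p = 6.04e-05).

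Cyp2w1 (probe set 17443985), an orphan enzyme known from developing gut and colon tumours, read 6.02, 5.92 and 5.70 at day 4, 5.93, 5.73 and 6.14 at day 7, and 7.31, 7.48 and 7.18 at day 21. It crossed the background level at day 21, with no overlap with the earlier arrays. The log2 change from day 7 was 1.39 ± 0.14 (SE), or 2.62-fold against a floor (limma adjusted p = 3.73e-05).

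The Cyp2d group holds enzymes of drug and steroid oxidation. Cyp2d26 (probe set 17319707) read 5.64, 6.02 and 5.83 at day 4, 5.63, 6.20 and 6.27 at day 7, and 7.10, 7.23 and 6.78 at day 21. All of its day 21 arrays were higher than any earlier one, and the log2 change from day 4 was 1.21 ± 0.19 (SE; limma adjusted p = 6.14e-04). Cyp2d22 moved less, from 5.59, 6.0 and 5.50 at day 4 and 5.82, 5.91 and 5.86 at day 7 to 6.38, 6.71 and 6.60 at day 21. Its log2 change from day 7 was 0.70 ± 0.14 (SE; limma adjusted p = 0.00438). Of the 10 Cyp2d genes that lie side by side, these 2 were called. Of all genes, 23.0% were called from day 7 to day 21 and 29.1% from day 4 to day 21. Cyp2d40 and the pseudogene Cyp2d37-ps were above background without a called change, with day 21 means of 6.10 and 6.45.

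Other called changes in family 2 were small or below background. Cyp2j6, an arachidonic acid epoxygenase, rose from day 4 to day 21 by 0.70 ± 0.19 (SE, log2; limma adjusted p = 0.0155), and the call was lost without day 4 array 1 or day 21 array 1 (limma adjusted p = 0.0551 to 0.0556). Cyp2c55 fell from day 7 to day 21 by 0.48 in log2 signal (limma adjusted p = 0.0297), from 7.43, 7.29 and 7.65 to 6.91, 7.02 and 7.00. That call was lost without day 7 array 1 or 3 or any 1 of the day 21 arrays (limma adjusted p = 0.0566 to 0.111). A second Cyp2c55 probe set, below background, had means of 4.28 and 4.96 on these days, and the mean of both probe sets gave a log2 change of 0.10, of opposite sign (limma adjusted p = 0.691).

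Cyp2c68 was called without leaving the background range. It read 2.79, 3.50 and 3.92 at day 4, 3.61, 3.62 and 3.55 at day 7, and 5.15, 5.37 and 5.11 at day 21, a log2 change from day 7 of 1.61 ± 0.23 (SE; limma adjusted p = 4.69e-04). A probe set annotated to both Cyp2c67 and Cyp2c68 had means of 3.53, 3.47 and 5.22, so these near-identical genes cannot be told apart here. Cyp2c70, Cyp2c38, Cyp2b13 and Cyp2j5 were also called below background, with log2 changes between -0.44 and 0.74. Each of these calls was lost when at least 1 array was left out. Cyp2b13 lost its call without day 4 array 1 (limma adjusted p = 0.0608), and Cyp2c70, for day 21 against day 4, without day 4 array 2 or day 21 array 2 (limma adjusted p = 0.0568 to 0.0801). For day 21 against day 7, the Cyp2c70 call was lost without day 4 array 1, any day 7 array, or day 21 array 1 or 2 (limma adjusted p = 0.0655 to 0.139). Cyp2c38 lost its call without any 1 of the day 4 arrays, day 7 array 1 or 3, or day 21 array 1 or 3 (limma adjusted p = 0.0596 to 0.163). The Cyp2j5 call was lost without any 1 of the day 4 arrays, day 7 array 2, or day 21 array 2 or 3 (limma adjusted p = 0.0514 to 0.134).

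Cyp2f2, known for naphthalene oxidation in airway club cells, gave different answers on its 2 probe sets. The brighter one, 17488117, was below background with means of 5.76, 5.77 and 5.72 and had no called change. The other, 17475498, read 4.47, 4.91 and 4.83 at day 4, 4.82, 5.15 and 4.78 at day 7, and 7.60, 7.26 and 7.55 at day 21. It lay above background at day 21 alone, and in a fit over all probe sets with 1 symbol its log2 change from day 7 was 2.55 ± 0.15 (SE), or 5.87-fold against a floor (limma adjusted p = 1.37e-06). The rule took the flat probe set because its mean over all arrays was 5.75, against 5.71. Taking each gene's probe set with the highest single-day mean, a choice made after seeing the data, gave 14 members higher and 5 lower at day 21 than at day 7. Of 9 markers of lung and airway epithelium, 4 were above background at day 21, with 2 called between days 7 and 21. Both rose: Foxj1, of ciliated cells, by 1.04 ± 0.13 (SE, log2; limma adjusted p = 2.18e-04) to a mean of 7.27, and the surfactant gene Sftpd by 0.57 ± 0.12 (limma adjusted p = 0.00508) to 6.35. Nkx2-1, Sftpc, Sftpa1, Scgb1a1, which defines club cells, and Scgb3a2 were below background on all days. The summed linear signal of the list was 474 to 591 at day 7 and 645 to 728 at day 21. That of 20 hepatocyte and hepatoblast markers was 4389 to 4596 at day 7 and 16886 to 20042 at day 21, with 9 called higher and 1 lower. Those 20 include Afp, the sorting marker, with a mean of 13.07 at day 21. The part of either cell type in the Cyp2f2 signal was not tested.

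**Figure D3:**
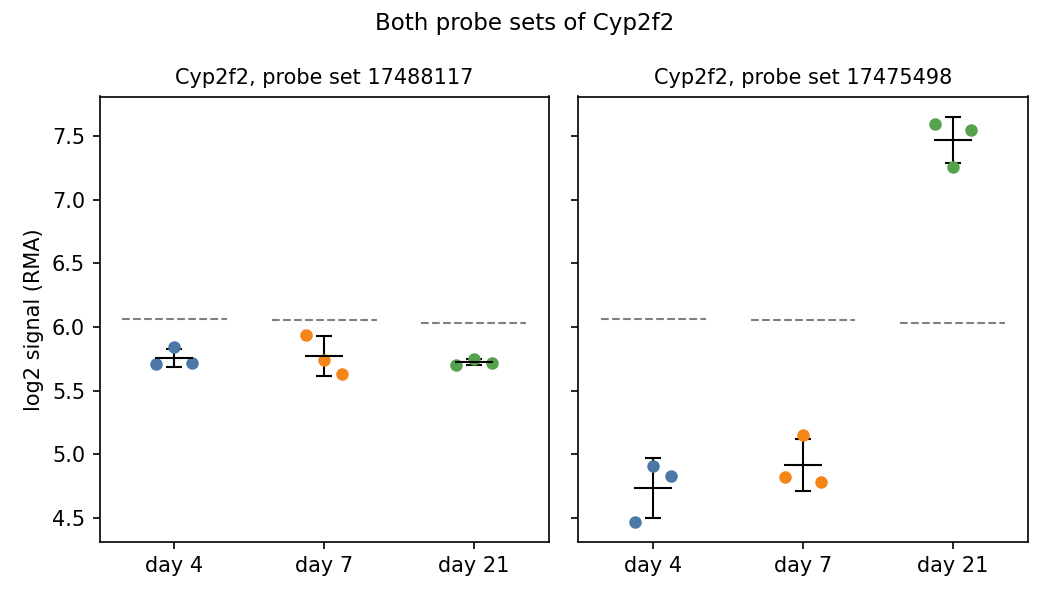
Log2 signal of the 2 Cyp2f2 probe sets by day, with single arrays as points, the mean ± SD of 3 arrays as bars and the background level of each day as dashed lines. Probe set 17488117 stays near 5.7 while 17475498 goes from 4.92 at day 7 to 7.47 at day 21.

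Several other enzymes typical of the adult liver were below background. Cyp2e1, which oxidises ethanol in hepatocytes, read 5.28, 5.28 and 5.28 at day 4 and 5.65, 5.07 and 5.77 at day 21. Of the 14 neighbouring Cyp2c genes, 1 (Cyp2c55) was above background. Across the 13 genes of the Cyp2a, Cyp2b, Cyp2f, Cyp2g, Cyp2s and Cyp2t block, 2 were, namely Cyp2s1 and Cyp2a22, whose means of 6.67, 6.52 and 6.78 showed no called change.

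In family 3, which oxidises drugs, steroids and bile acids, 1 of 7 members was above background. Cyp3a13 (probe set 17454193) read 4.87, 4.91 and 4.94 at day 4, 6.66, 6.83 and 6.49 at day 7, and 7.64, 7.60 and 7.26 at day 21. The groups did not overlap, and each step was called. The log2 change was 1.75 ± 0.13 (SE), or 3.37-fold against a floor, from day 4 to day 7 (limma adjusted p = 7.9e-06) and 0.84 ± 0.13 from day 7 to day 21 (limma adjusted p = 7.43e-04). The first step was the larger by 0.91 ± 0.22 (SE, log2), as the difference of the 2 intervals, later minus earlier, was -0.91 (limma adjusted p = 0.018). The call of that difference was lost without day 7 array 2. The 6 other members lie side by side, away from Cyp3a13. None of them was above background on any day, with Cyp3a11, the main adult liver form, at 5.29, 5.26 and 5.28, and Cyp3a16, known from fetal liver, at 3.13, 3.29 and 3.12.

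Family 1 oxidises polycyclic hydrocarbons and estrogens and is induced through the aryl hydrocarbon receptor. Cyp1b1 (probe set 17347448) read 5.73, 5.20 and 5.46 at day 4, 4.77, 5.38 and 5.73 at day 7, and 7.67, 7.14 and 6.22 at day 21. All day 21 arrays were higher than the earlier ones, but they spread widely, with an SD of 0.73 (n = 3 arrays). The log2 change from day 7 was 1.72 ± 0.34 (SE; limma adjusted p = 0.00405). In 15 measured stromal and fibroblast markers the summed linear signal was 3518 to 3761 at day 4, 2036 to 2444 at day 7 and 8764 to 16648 at day 21. Above background were 11, 11 and 14 of them on days 4, 7 and 21. Dcn read 12.20, 11.52 and 10.96 and Col1a1 11.85, 11.32 and 11.01 on the same day 21 arrays, the same order as Cyp1b1. Thy1, Twist2, Acta2 and Vim of the list did not keep that order. The part of stromal cells in the Cyp1b1 result was not tested.

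Cyp1a1 had a different course, with 5.79, 5.64 and 5.52 at day 4, 6.11, 6.32 and 6.22 at day 7 and 5.28, 5.31 and 5.92 at day 21. From day 4 to day 21 its log2 change of -0.15 was not called (limma adjusted p = 0.587). It was above background at day 7 alone, and its log2 change from day 7 to day 21 was -0.71 (limma adjusted p = 0.01). The log2 change from day 4 to day 7, 0.57 ± 0.17 (SE), was called at a limma adjusted p of 0.0482. It was not called without any 1 of the day 4 or day 7 arrays or day 21 array 2 (limma adjusted p = 0.0538 to 0.157). The receptor gene Ahr read 6.67, 5.99 and 6.11 at day 4, 7.39, 7.45 and 7.34 at day 7 and 9.17, 8.97 and 8.98 at day 21. Cyp1a2, a liver enzyme that lies beside Cyp1a1, stayed below background at 4.85, 4.97 and 4.94.

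Among the 6 genes of cholesterol and bile acid metabolism, 3 were above background. Cyp39a1, which hydroxylates 24-hydroxycholesterol, read 8.43, 8.38 and 8.66 at day 4, 8.32, 8.32 and 8.35 at day 7, and 9.18, 9.38 and 9.37 at day 21. The day 21 arrays lay above all others, with a log2 change from day 7 of 0.98 ± 0.11 (SE), or 1.97-fold (limma adjusted p = 7.76e-05). Cyp7b1, the oxysterol hydroxylase of the alternative bile acid route, dipped at day 7, reading 6.87, 6.63 and 6.73, then 5.90, 5.89 and 6.21, then 6.41, 6.41 and 6.31. It fell by 0.74 on the log2 scale from day 4 to day 7 (limma adjusted p = 0.00146).

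The later Cyp7b1 changes were less firm. The log2 change from day 7 to day 21 was 0.38 (limma adjusted p = 0.0375), and the call was lost without day 4 array 3, day 7 array 1 or 2, or day 21 array 1 or 2 (limma adjusted p = 0.0545 to 0.124). From day 4 to day 21 it was -0.36 (limma adjusted p = 0.0366), lost without day 4 array 1 or 3 or any 1 of the day 21 arrays (limma adjusted p = 0.0662 to 0.125). Cyp46a1, the 24-hydroxylase of brain cholesterol, was above background with means of 6.50, 6.53 and 6.71 and no called change.

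The remaining genes of cholesterol and bile acid metabolism were below background. Cyp7a1, the rate-limiting enzyme of the classical bile acid route, had means of 4.04, 4.04 and 3.85. Those of Cyp8b1, which sets cholic acid production, were 5.73, 5.95 and 5.71. For the sterol 27-hydroxylase Cyp27a1 they were 5.76, 5.53 and 5.99. None of these was called (limma adjusted p = 0.0747 for Cyp27a1 from day 7 to day 21). Cyp51, the sterol demethylase of cholesterol synthesis, is named by another scheme and is not among the 95. It read 8.95, 8.85 and 8.57 at day 7 and 7.91, 8.18 and 7.49 at day 21, and fell by 0.93 in log2 signal (limma adjusted p = 0.00251).

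Of the 5 genes that handle vitamin D and retinoic acid, 1 was above background. Cyp26b1, which clears retinoic acid, read 6.17, 5.89 and 6.14 at day 4, 6.17, 6.53 and 6.30 at day 7 and 6.18, 6.23 and 6.03 at day 21, close to the background level throughout and with no called change. Cyp24a1, which breaks down vitamin D, had means of 5.50, 5.44 and 5.42. The vitamin D 25-hydroxylase Cyp2r1 was called lower at day 21 than at day 4 while below background, with a log2 change of -0.69 (limma adjusted p = 0.0468). That call was lost without day 4 array 1 or 2, day 7 array 2, or day 21 array 1 or 2 (limma adjusted p = 0.0645 to 0.167).

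Family 4 hydroxylates fatty acids and eicosanoids. Of its 20 members, 6 were above background on at least 1 day, against 59.5% of all genes. From day 7 to day 21, 2 rose and 1 fell, and likewise from day 4 to day 21, so 3 of 20 were called where 23.0% and 29.1% of all genes were. Cyp4f15 (probe set 17336013), of the leukotriene-hydroxylating Cyp4f group, read 6.72, 7.25 and 7.36 at day 4, 5.87, 6.0 and 5.80 at day 7, and 5.12, 5.27 and 4.93 at day 21. The groups did not overlap, and the signal was below background from day 7 on. It fell by 1.22 on the log2 scale from day 4 to day 7 (limma adjusted p = 5.98e-04) and by 0.79 from day 7 to day 21 (limma adjusted p = 0.00552), or 4.01-fold to a floor over both.

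Cyp4v3 (probe set 17509069), an omega-hydroxylase of fatty acids, read 6.15, 6.43 and 6.44 at day 4, 5.12, 5.50 and 5.66 at day 7, and 6.80, 6.93 and 7.04 at day 21. It was below background at day 7 alone, and the day 7 arrays overlapped no others. It fell by 0.91 in log2 signal (limma adjusted p = 0.00193) and then rose by 1.50 ± 0.15 (SE; limma adjusted p = 3.96e-05), and the 2 intervals differed by 2.41 ± 0.26 (limma adjusted p = 9.95e-05). Day 21 was above day 4 by 0.58 ± 0.15 (limma adjusted p = 0.0126), a call lost without day 4 array 1, where the log2 change was 0.49 (limma adjusted p = 0.0527).

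Within the Cyp4f block of 9 neighbouring genes, members took different courses. Cyp4f13 read 7.01, 6.33 and 7.26 at day 4, 7.25, 6.91 and 6.40 at day 7, and 8.25, 7.45 and 7.85 at day 21, so that it rose where Cyp4f15 fell. Its log2 change from day 7 to day 21 was 1.0 ± 0.29 (SE; limma adjusted p = 0.029), lost without day 7 array 2 or 3 or day 21 array 1 or 3 (limma adjusted p = 0.0662 to 0.109). From day 4 to day 21 it was 0.98 ± 0.29 (limma adjusted p = 0.0248), lost without day 4 array 2 or day 21 array 1 or 3 (limma adjusted p = 0.0614 to 0.0957). Cyp4f16 (6.54, 6.51 and 6.68) and Cyp4f17 (7.23, 7.20 and 7.26) were above background with no called change, as was Cyp4a12b of the Cyp4a block (6.90, 7.07 and 6.99). Cyp4b1, which activates lung toxicants, stayed below background at 5.43, 5.82 and 5.46.

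Cyp20a1, an orphan member with no assigned substrate, was among the members above background on all days. It read 8.09, 8.10 and 8.03 at day 4, 8.41, 8.36 and 8.28 at day 7, and 7.98, 7.79 and 7.55 at day 21. The log2 change of 0.27 up to day 7 was not called (limma adjusted p = 0.176), and it fell by 0.58 from day 7 to day 21 (limma adjusted p = 0.00446).

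The difference between the total changes of the intervals, later minus earlier, was tested too. The intervals differ in length, so this does not compare rates. It was called higher for 7 members (8.33% of all genes), namely Cyp11a1, Cyp2s1, Cyp2w1, Cyp39a1, Cyp4v3, Cyp7b1 and Cyp2c68, and lower for 3 (6.32%), namely Cyp1a1, Cyp20a1 and Cyp3a13. Without day 7 array 1 the lower calls went to 1 and without day 7 array 2 to 0, at a limma adjusted p under 0.05. For Cyp1b1 the difference of 1.89 ± 0.59 (SE, log2) was not called (limma adjusted p = 0.0592).

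**Figure D4:**
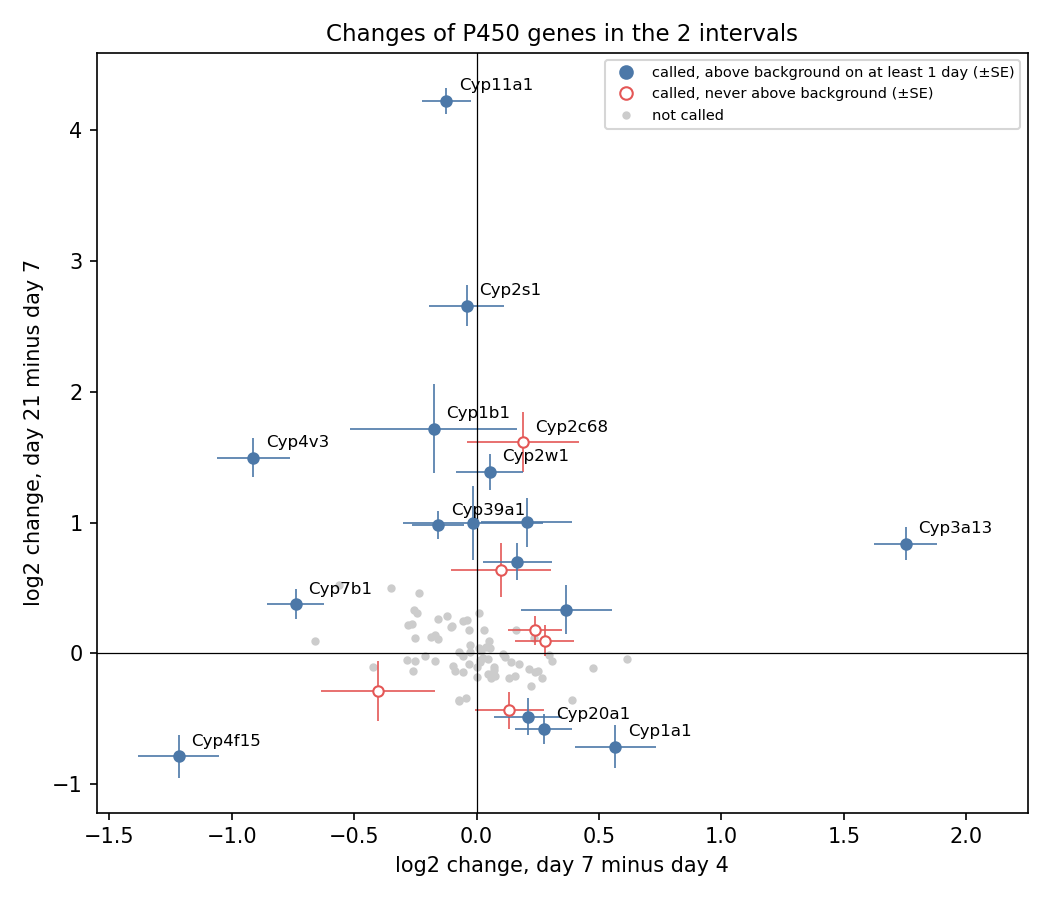
Log2 change from day 4 to day 7 (horizontal axis) against that from day 7 to day 21 (vertical axis) for the 95 members, each point a difference of means of 3 arrays. Filled points are called members above background on at least 1 day and open points called members that never were, with bars of ± 1 SE, and grey points were not called. The day 7 arrays enter both axes with opposite sign, so the slope of the cloud is not a result; Cyp11a1 stands at -0.12 and 4.23, Cyp3a13 at 1.75 and 0.84, and Cyp4v3 at -0.91 and 1.50.

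The proteins that serve the P450 enzymes were read from lists of other genes. Of 19 listed genes for electron donors, haem supply and assembly, 15 were measured, and all 15 were above background on every day. Por and the ferredoxin reductase gene Fdxr were not among those measured. From day 4 to day 21, 6 rose and 1 fell, among them the haem synthesis genes Ppox (log2 change 0.81 ± 0.15, SE), Alas1 (0.57 ± 0.09) and Urod (-0.92 ± 0.12), and Pgrmc1, which binds P450 enzymes (0.67 ± 0.09). The list's median change was 0.17. Of 32 measured regulators of P450 genes, 15, 19 and 22 were above background on days 4, 7 and 21, and 16 rose and 1 fell from day 4 to day 21, with a median change of 0.39. Onecut1 (3.34 ± 0.19), Nr2f2 (3.18 ± 0.15) and Ahr (2.78 ± 0.16) had the largest rises, and Tiparp, a repressor of the aryl hydrocarbon receptor, fell by 0.84, or by 0.49 with the mean of all its probe sets. The xenobiotic receptors Nr1i2 and Nr1i3, which drive Cyp2b and Cyp3a genes in adult liver, were below background on all days, with means of 5.35 and 5.55 at day 21.

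Enzymes outside the 95 members that act on the same classes of compound also moved. Of 16 measured partners in steroid and bile acid metabolism, the 5 called from day 4 to day 21 all rose, led by the cholesterol 25-hydroxylase Ch25h (1.71 ± 0.20, SE, log2), which was 0.89 with the mean of all its probe sets, with Acox2 (0.73 ± 0.15) and Hsd3b7 (0.69 ± 0.14), and the list's median change was 0.19. Of 24 other oxidising, alcohol dehydrogenase, esterase and epoxide hydrolase genes, 12 rose and 2 fell, with a median of 0.36. Ptgis and Tbxas1 of this list are themselves P450 enzymes, whose symbols the naming rule leaves out. The epoxide hydrolase Ephx1 (4.51 ± 0.19), the retinol-oxidising Adh1 (3.83 ± 0.15) and the monoamine oxidase Maob (2.43 ± 0.15) rose most, Adh1 by 1.65 with the mean of all its probe sets, while Ptgis and Adh5 fell by 0.53 and 0.51. These shares stand beside 15.0% of all genes called higher and 14.1% called lower.

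Markers of the cell types that such cultures can hold moved with the days. Of 20 hepatocyte and hepatoblast markers, 3, 8 and 12 were above background on days 4, 7 and 21. Their summed linear signal went from 968 to 1001 at day 4 to 16886 to 20042 at day 21. This list and the visceral endoderm list both hold Afp, the sorting marker, which had the highest day 21 mean of each (13.07). The sums of these lists are therefore not independent of the sort. From day 4 to day 21, 13 of the 20 were called, all higher. At day 21 against day 7, 9 were higher and 1 lower. Alb went from a mean of 5.31 at day 7 to 11.50 at day 21, and Vtn from 7.09 to 11.16. Cps1, of the urea cycle, moved less, from a mean of 5.92 at day 7 to 6.89 at day 21 (limma adjusted p = 1.53e-04). The list's 8 members below background on all days were Serpina1a, Serpina1b, Tat, Otc, Pck1, G6pc, Tdo2 and Hpd, although Otc was called higher at day 21 than at day 4 (log2 change 0.91, limma adjusted p = 0.00205), as was Serpina1b (0.50, limma adjusted p = 0.0205), whose call was lost without day 4 array 2 or day 21 array 2 or 3 (limma adjusted p = 0.0532 to 0.0828). All 15 visceral endoderm markers were above background at day 7, when their sum was 34870 to 35426, against 3251 to 3472 at day 4 and 15573 to 17523 at day 21. Of 9 markers of stratified and urothelial epithelium, 2, 2 and 9 were above background, with a sum of 497 to 550 at day 7 and 10000.3 to 11598 at day 21. Of 13 intestinal markers, 3, 2 and 8 were above background, with Cdx1 and Cdx2 below it on all days and a sum of 968 to 1105 at day 7 and 1776 to 2098 at day 21. Macrophage markers numbered 1, 1 and 4 of 10 above background, endothelial markers 5, 4 and 4 of 10, and markers of pluripotent cells and epiblast 7, 6 and 3 of 9. The part of these cell types in the P450 changes was not tested.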

How the data were processed

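RNA of 9 samples was measured on Affymetrix mouse arrays, 3 samples at each of days 4, 7 and 21. The submitters' processing notes name RMA and Affymetrix Expression Console for the log2 signals the authors deposited. Their versions were not given in the sources used here, and RMA includes quantile normalization, which removes any shift shared by most genes. Of 34365 probe sets, 23521 had 1 symbol, 1814 several and 9030 none in the platform annotation, and 23328 of the first matched a RefSeq gene (assembly GRCm38.p6), with 0 symbols changed. The probe set with the highest mean stood for a gene, 6 probe sets shared with other genes were left out, and 1 gene of the family is not reported here. All 22180 genes were fitted with limma 3.58.1 in R 4.3.3, with 1 mean per day, empirical Bayes variances, two-sided tests and Benjamini-Hochberg adjustment over all genes, the threshold being 0.05. The fit was tested on simulated data. Named were all members called or above background and a list of anchor genes (41 P450 genes, Cyp51 included) and, per pathway list, up to 3 called genes in each direction (16 genes). Marker genes were named after their values were seen. The members, the 4 pathway lists and the 10 marker lists were chosen with earlier results of these data known. Genes counted as neighbours when at most 5 other protein-coding genes lay between them. Alternatives were other scalings, probe set rules, background levels and filters, a replicate block and each array left out.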

Additional observations from a re-analysis of the deposited data

How the results depend on the processing

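A replicate block left 1 member higher at day 7 than at day 4, and 1 lower at day 21 than at day 4. Whether the replicate numbers pair the samples cannot be told from 3 arrays per day. The 9 same-numbered pairs had correlations of their deviations from -0.05 to 0.26, against -0.18 to 0.07 for the other pairs. Of the same-numbered pairs 2 exceeded 0.1, both between days 7 and 21 (0.14 and 0.26). With array medians subtracted, 9 members were lower and 13 higher at day 21 than at day 4. A background level at the 99th percentile of the olfactory receptor genes left 5, 7 and 12 members above it on days 4, 7 and 21. With each array left out, higher and lower members numbered 1 to 2 and 3 to 4 at day 7 against day 4, 11 to 13 and 3 to 5 at day 21 against day 7, 11 to 15 and 1 to 4 at day 21 against day 4, and 6 to 8 and 0 to 4 for the interval difference, while 14 to 15, 16 to 17 and 21 to 24 members were above background. Averaging probe sets turned the Cyp2c55 change from day 7 to day 21 to 0.10. The cause of these shifts was not tested. Of 43 called changes in the 41 named P450 genes, Cyp51 included, 29 kept their direction and call in each of the 17 to 18 alternatives, and 14 lost the call in at least 1. The changes from day 4 to day 21 of all 16 named pathway genes kept theirs. Near background, probe signal limits the smaller changes.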

Other observations

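Other probe sets of the family were annotated to several genes and represented none of them. The 2 probe sets annotated to Cyp3a41a, Cyp3a41b, Cyp3a11 and Cyp3a44 had means of 4.69 and 4.75 at day 4 and 5.07 and 5.11 at day 21, below background on all days. The 2 probe sets that include Cyp4a10 had day 21 means of 3.75 and 3.17. A probe set shared by Cyp4v3 and its neighbour Klkb1 had means of 4.89, 5.12 and 5.25 on days 4, 7 and 21, all below background, while the Cyp4v3 probe set itself was above background on days 4 and 21.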
